A study of Canis lupus familiaris with 14 samples.

Results

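Cytosolic ribosomal protein genes were followed in lymph node aspirates of dogs with lymphoma and of disease-free dogs. The members were all genes whose only annotated symbol was RPL or RPS plus a number, with an optional A, X or L, or was RPLP0, RPLP1, RPLP2 or RPSA, and kinases named RPS6K were left out. This rule, which uses names and no measured value, found 54 of the 15115 genes on the array, 21 of the small subunit and 33 of the large subunit. No single-symbol probe set was listed for RPSA. The 54 genes had 111 probe sets, and 26 of them had 1 probe set each.

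The study hybridised 1 canine GeneChip array to the RNA of each of 14 aspirates, taken from 13 dogs. Lymphoma aspirates came from client-owned dogs at 3 clinics (name prefixes FS, NE and RB) before they received an experimental PI3-kinase inhibitor, and 4 of these dogs (FS21, RB07, FS22 and FS25) had been treated earlier. Lymphoma of B-cell type was the label of FS21 (Pitt Bull Terrier and Labrador Retriever mix), NE41 (Boxer and Pitt Bull Terrier mix), NE42 (Labrador Retriever), RB03 (Pointer), RB16 (Chesapeake Bay Retriever), and RB07 and RB10 (Boxers), and T-cell type was that of NE45 (Golden Retriever), FS25 (Boxer) and FS22 (Beagle). The 4 normal nodes came from 3 Beagles of a research colony, 63, 2970 and 3024, and dog 3024 gave 2 nodes, 3024l and 3024r. Lymphoma therefore cannot be told apart from housing in these groups. Nor can it be told apart from breed, since FS22 alone among the lymphomas was a Beagle like the normal dogs. Class E-J (FS21, NE41, NE42, RB03, RB16 and FS22) and class K-N (RB07, RB10, FS25 and NE45) are the lymphoma groups to which the study's own clustering of these RNAs gave those letters. Because the profiles themselves formed the classes, every value by class is a description without a test.

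A ribosome is built from ribosomal RNA and many different proteins, most of them normally present once in each particle. The small subunit reads the message, and the large subunit joins amino acids and releases the chain through an exit tunnel. Messages for these proteins are among the most abundant in growing cells, carry a pyrimidine tract at the 5′ end that places their translation under mTOR, and depend in part on MYC for their transcription. Several of the genes are mutated in inherited anaemia or in lymphoid leukaemia of humans.

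Some arrays stood apart. The GAPDH control signal of the 3′ probe set over that of the 5′ probe set, a measure of RNA quality, came to 23.2 for 3024l, where the remaining 13 arrays ranged from 3.30 to 8.94. RB07 and RB10, labelled B-cell, had log2 signals of 12.1 and 12.5 for CD3E, part of the T-cell receptor complex, against 7.22 to 9.29 in the other 5 lymphomas of that label. FS22, labelled T-cell, had a CD3E signal of 8.80 against 12.5 and 12.6 in FS25 and NE45. Over 6 of 7 listed B-cell markers found on the array, the mean log2 signal was 9.10 to 11.1 in class E-J, 4.47 to 7.40 in class K-N and 8.69 to 9.67 in normal nodes, and over 6 of 7 T-cell markers it was 7.65 to 9.09, 11.8 to 12.2 and 10.0 to 11.6. Over 8 of 8 myeloid markers, normal nodes had 10.2 to 11.4 against 7.73 to 9.10 in class E-J and 7.31 to 9.33 in class K-N, and over 6 of 6 stromal genes 9.17 to 9.84 against 5.71 to 7.39 and 6.22 to 8.16. Myeloid and stromal levels were thus lower in all lymphomas than on all normal arrays and overlapped between the classes, whereas B-cell and T-cell levels were apart between the classes. Their part in the results below was not tested, and in whole aspirates fewer cells of a type cannot be told apart from less RNA per cell.

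Expression was measured as the mean log2 signal over the probe sets of a gene, and 52 of 54 members reached a signal of 100 on at least 3 of the 14 arrays. The exceptions were RPL3L and RPL10L, paralogs whose known use is confined to muscle and testis. RPL3L reached 100 on 0 arrays and RPL10L on 1 array. RPL37A reached it on 3 arrays, and the other 51 members on 11 or more. Each member was then set against its own mean over the 14 arrays, and the median of these deviations over the 52 members gave the level of ribosomal protein messages of an array. It was -0.14 on normal node 63, -0.37 on 2970, -0.54 on 3024l and -0.24 on 3024r. In class E-J it was 0.50 in FS21, 0.46 in NE41, 0.65 in NE42, 0.54 in RB03, 0.05 in RB16 and 0.36 in FS22. In class K-N it was 0.19 in RB07, -0.48 in RB10, -0.09 in FS25 and -0.51 in NE45. All class E-J lymphomas lay above all normal nodes, whereas class K-N overlapped the normal nodes and RB07 lay above RB16. In NE42 and in FS21, 51 of 52 members were above their own mean, and in RB10 and NE45 only 7 were. Members of both subunits gave similar array medians, in NE42 0.64 for the small and 0.65 for the large subunit and in NE45 -0.53 and -0.42, and they lay farthest apart on 3024l at -0.60 and -0.34.

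**Figure D1:**
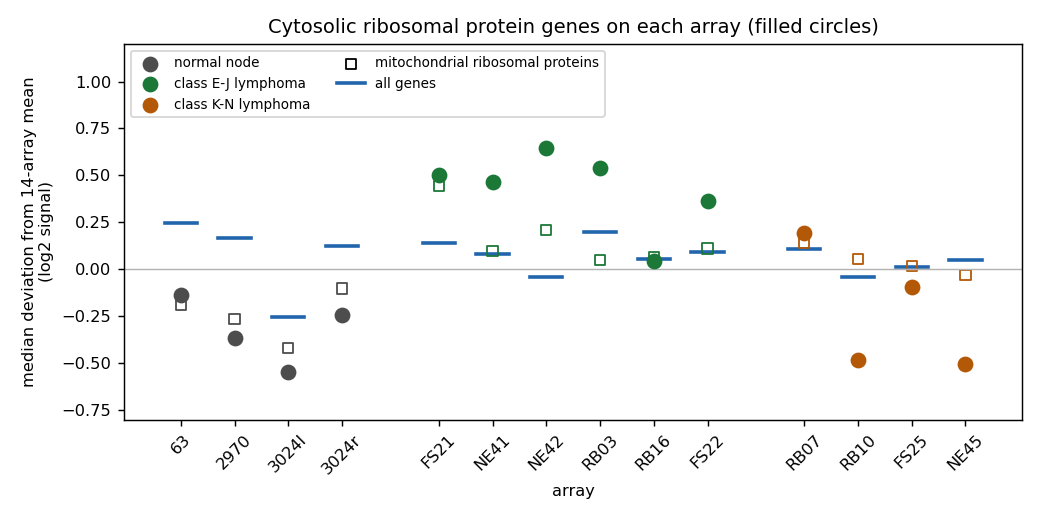
Median deviation from the 14-array mean (log2 signal, vertical axis) on each array (horizontal axis) for the 52 cytosolic ribosomal protein genes (filled circles), 70 mitochondrial ribosomal protein genes (open squares) and all 9400 genes that passed the signal limit (blue bars). The 6 class E-J circles lie between 0.05 and 0.65, above the 4 normal circles at -0.54 to -0.14, and the 4 class K-N circles run from -0.51 to 0.19.

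Mitochondrial ribosomal proteins, the parts of the separate ribosome inside mitochondria, were set beside them. Over 70 of these genes the array median was -0.42 to -0.10 in normal nodes, 0.05 to 0.45 in class E-J and -0.03 to 0.14 in class K-N. In RB10 the cytosolic genes stood at -0.48 and the mitochondrial genes at 0.06, and in NE45 at -0.51 and -0.03, whereas RB03 had 0.54 and 0.05. Whether the kinds of ribosome differ was not tested. The same median over all 9400 genes was 0.12 to 0.24 on 3 normal arrays, -0.25 on 3024l and -0.04 to 0.20 in the lymphomas.

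The first test compared the B-cell set of the study (FS21, NE42, RB03 and RB16, chosen there by cytology, CD79a staining and the lack of a T-cell profile) with normal nodes 63, 2970 and 3024r. Ribosomal protein messages were mostly higher in these lymphomas. Of 51 members tested, 48 had a higher mean in lymphoma, 6 rose and 0 fell (limma, adjusted over all genes), and their median log2 difference was 0.60 against -0.06 over all 8295 genes tested. The 6 are 11.8% of the members, where 3.48% of all genes rose and 7.39% fell. At an unadjusted p of 0.05, 24 of 51 members and 2487 of all 8295 genes passed.

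RPS4X, a small subunit protein encoded on the X chromosome (Entrez gene 403893), had the largest difference. Its log2 signal was 9.05 in FS21, 9.14 in NE42, 8.53 in RB03 and 9.38 in RB16. The normal nodes had 7.08 in 63, 7.17 in 2970 and 6.53 in 3024r. Every lymphoma lay above every normal node of the set, and the log2 difference was 2.10 (standard error 0.29, limma adjusted p = 0.0104, n = 4 and 3). Node 3024l had 8.33, and with it in place of 3024r the difference was 1.499 (limma adjusted p = 0.0841).

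The further members RPL24, RPL10A and RPL35, which also rose, belong to the large subunit. RPL24 (Entrez gene 478547), which lies at the contact between the subunits, had 10.42 in FS21, 11.67 in NE42, 11.42 in RB03 and 10.95 in RB16, against 9.21, 8.58 and 9.53 in nodes 63, 2970 and 3024r. Its log2 difference of 2.01 (standard error 0.38, limma adjusted p = 0.0225) rests on a dim probe set that reached 100 on 1 array, and by its brighter probe set alone the difference was 0.61 (limma adjusted p = 0.155). RPL10A (Entrez gene 474884), at the exit site for transfer RNA, had 12.90, 13.61, 13.15 and 13.16 in the lymphomas in the same order against 11.97, 11.82 and 11.82 in the nodes. The groups were apart by 1.33 (standard error 0.24, limma adjusted p = 0.0198), and by the brighter probe set alone by 0.69 (limma adjusted p = 0.0897). RPL35 (Entrez gene 480729), next to the exit tunnel, had 10.20, 10.23, 9.81 and 9.34 against 8.52, 8.67 and 8.82, a difference of 1.23 (standard error 0.28, limma adjusted p = 0.0361), and by its brightest probe set alone 0.89 (limma adjusted p = 0.0788). For these genes the groups did not overlap on the gene average, and the size of the difference depended on the probe set.

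Of the small subunit, RPS20 and RPS9 also rose. RPS20 (Entrez gene 477887), a protein of the head of the subunit, had 11.82 in FS21, 11.82 in NE42, 11.62 in RB03 and 11.22 in RB16 against 10.68 in 63, 10.39 in 2970 and 10.27 in 3024r, a log2 difference of 1.17 (standard error 0.25, limma adjusted p = 0.0290). It had 8 probe sets, and the log2 difference between class E-J and normal ran from 0.53 to 2.39 over them, all above 0. RPS9 (Entrez gene 476387), near the entry of the message channel, had 15.33, 15.54, 15.46 and 14.99 against 14.43, 14.26 and 14.45. Its normal nodes were close together, and the difference was 0.95 (standard error 0.23, limma adjusted p = 0.0390). After quantile normalization it was 0.34 (limma adjusted p = 0.257). Just short of the threshold were RPL6 with a log2 difference of 1.09 and limma adjusted p = 0.0563, RPS27L with 0.78 and limma adjusted p = 0.0571, RPL8 with 0.96 and limma adjusted p = 0.0605, and RPL14 with 0.80 and limma adjusted p = 0.0677.

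**Figure D2:**
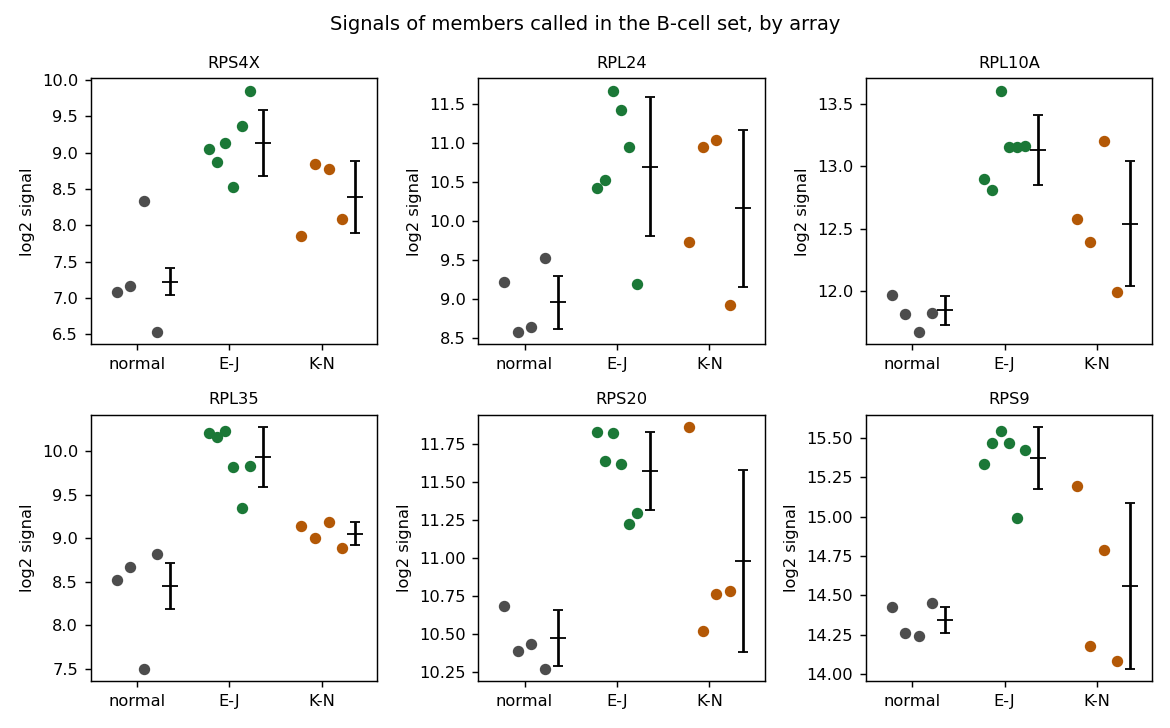
Log2 signal (vertical axis) of the 6 members that rose in the B-cell set, on every array by group (normal nodes in the order 63, 2970, 3024l and 3024r). Black bars are the mean and SD over 3 normal dogs, 6 class E-J and 4 class K-N lymphomas. For RPS4X the class E-J points run from 8.53 to 9.86, above all normal points.

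The calls depended on a small normal group. Without any 1 of the 3 normal nodes 0 members passed, and without FS21 or NE42 3 passed. The methods' t-test called 0 members and 8 of all genes after adjustment, and limma with a trend and robust variance called 18 members. Quantile normalization, which forces every array to the same distribution, lowered the median member difference from 0.60 to 0.25, with 37 of 51 members higher and 5 called.

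The second test set all 10 lymphomas against the 3 normal dogs and shares normal nodes with the first. The members were again mostly higher, and fewer passed. Of 52 members tested, 48 had a higher mean in lymphoma, 1 rose and 0 fell, beside 1.03% of all genes that rose and 2.6% that fell (limma). The median member difference was 0.40, against -0.03 over all 9400 genes. After quantile normalization it was 0.10, with 32 of 52 members higher, so the size of the shift depended on how the arrays were scaled.

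The member that rose was RPS4X, with log2 signals from 7.86 to 9.86 and a median of 8.86 in the lymphomas against 7.22 ± 0.18 (SD, n = 3) in the normal dogs. The difference was 1.61 (standard error 0.36, limma adjusted p = 0.0311, n = 10 and 3), and 1.31 with node 3024l alone for dog 3024 (limma adjusted p = 0.102). By the brighter probe set with several symbols it was 0.61. Without dog 63, 2970 or 3024 RPS4X did not pass (limma adjusted p = 0.119, 0.173 and 0.100), and without NE45 2 members passed. RPS19, the protein most often mutated in inherited anaemia, had a difference of 1.61 as well (limma adjusted p = 0.0557), but node 3024l with 7.27 and node 3024r with 10.66 came from the same dog. Next in size on the gene averages were RPL24 with 1.52 (limma adjusted p = 0.133), RPL35 with 1.13 (limma adjusted p = 0.0799) and RPS26 with 1.06 (limma adjusted p = 0.348). By the brightest probe sets RPS19, RPL24, RPL35 and RPS26 had smaller differences of 0.89, 0.64, 0.54 and 0.69. At the other end stood RPLP2, an acidic protein of the P stalk, with -0.38 (limma adjusted p = 0.714), RPL26, which binds the message of p53, with -0.35, RPL34 with -0.13, RPL9 with -0.11 and RPS15 with 0.04. None of these 5 passed the test. By their brightest probe sets RPL34 and RPL9 were higher in lymphoma, by 0.50 and 0.22. Brighter probe sets with several symbols gave 0.35 for RPL26 and 0.03 for RPLP2.

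The third test compared 7 lymphomas labelled B-cell with 3 labelled T-cell. No member passed. The counts of all genes that rose (0%) and fell (0%) were also 0 by limma and by the methods' t-test, and at an unadjusted p of 0.05 limma gave 1 member and 3.65% of all genes. The median member difference was 0.34 against 0.00 over all genes, with 44 of 52 members higher in the B-cell label. Without RB07, RB10 and FS22, whose markers went against their labels, the median was 0.71 over 5 B-cell and 2 T-cell lymphomas. These 7 are class E-J dogs on the B-cell side and class K-N dogs on the T-cell side, so the values are a description like those by class. By limma 1 member (RPLP1) was over the threshold there, beside 2.47% of all genes that were higher and 0.928% that were lower, and nothing is read from that count. With the clinic as a block the median was 0.70 and 0 members passed, and leaving out 1 dog at a time gave medians from 0.15 (without NE45) to 0.54 (without FS22).

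By class, members were higher in class E-J than in normal nodes and close to normal in class K-N. The median difference from normal was 0.67 in class E-J, with 49 of 52 members higher, and 0.10 in class K-N, with 30 of 52 higher. Over all 9400 genes these medians were -0.01 and -0.07. Without RB07 the class K-N median was -0.02 with 25 of 52 members higher. Groups did not overlap and class E-J was the higher for 22 members (42.3%) and the lower for 0, beside 9.2% and 10.9% of all genes. Class K-N was clear of the normal dogs above for 5 members (9.62%) and below for 1 (1.92%), beside 8.8% and 12.5%. Class E-J minus class K-N had a median of 0.60 with 46 of 52 members higher, against 0.05 over all genes, and 12 members (23.1%) were apart upwards and 0 downwards, beside 6.26% and 4.45%.

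Scaling weighed unequally on these class values. The top 1% of probe sets held 36.9 to 42.6% of the total signal in class E-J, 33.4 to 40.9% in class K-N and 31.97 to 35.0% on normal arrays, and the member probe sets alone held 5.33 to 7.20%, 3.91 to 5.66% and 3.76 to 4.82%. After quantile normalization the median of class E-J minus normal was 0.27 with 39 of 52 members higher, that of class K-N minus normal was -0.04 with 23 higher, and that of class E-J minus class K-N was 0.46 with 44 higher. Centring each array on its median shifted the median of all genes from -0.01 to 0.24 in class E-J minus normal, and the members from 0.67 to 0.91. Under these scalings the difference between the classes moved least and that of class E-J from normal most.

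**Figure D3:**
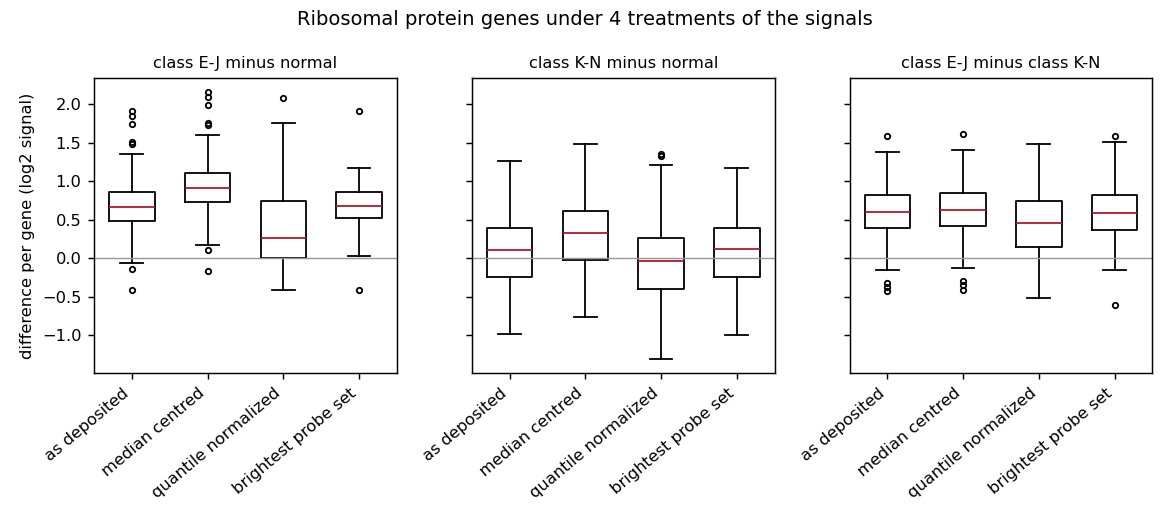
Difference of group means per gene (log2 signal, vertical axis) for the 52 members under 4 treatments of the signals, for each pair of groups; boxes are quartiles, red lines medians, whiskers reach 1.5 times the quartile range. The median of class E-J minus normal was 0.67 as deposited and 0.27 after quantile normalization, and that of class E-J minus class K-N was 0.60 and 0.46.

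**Figure D4:**
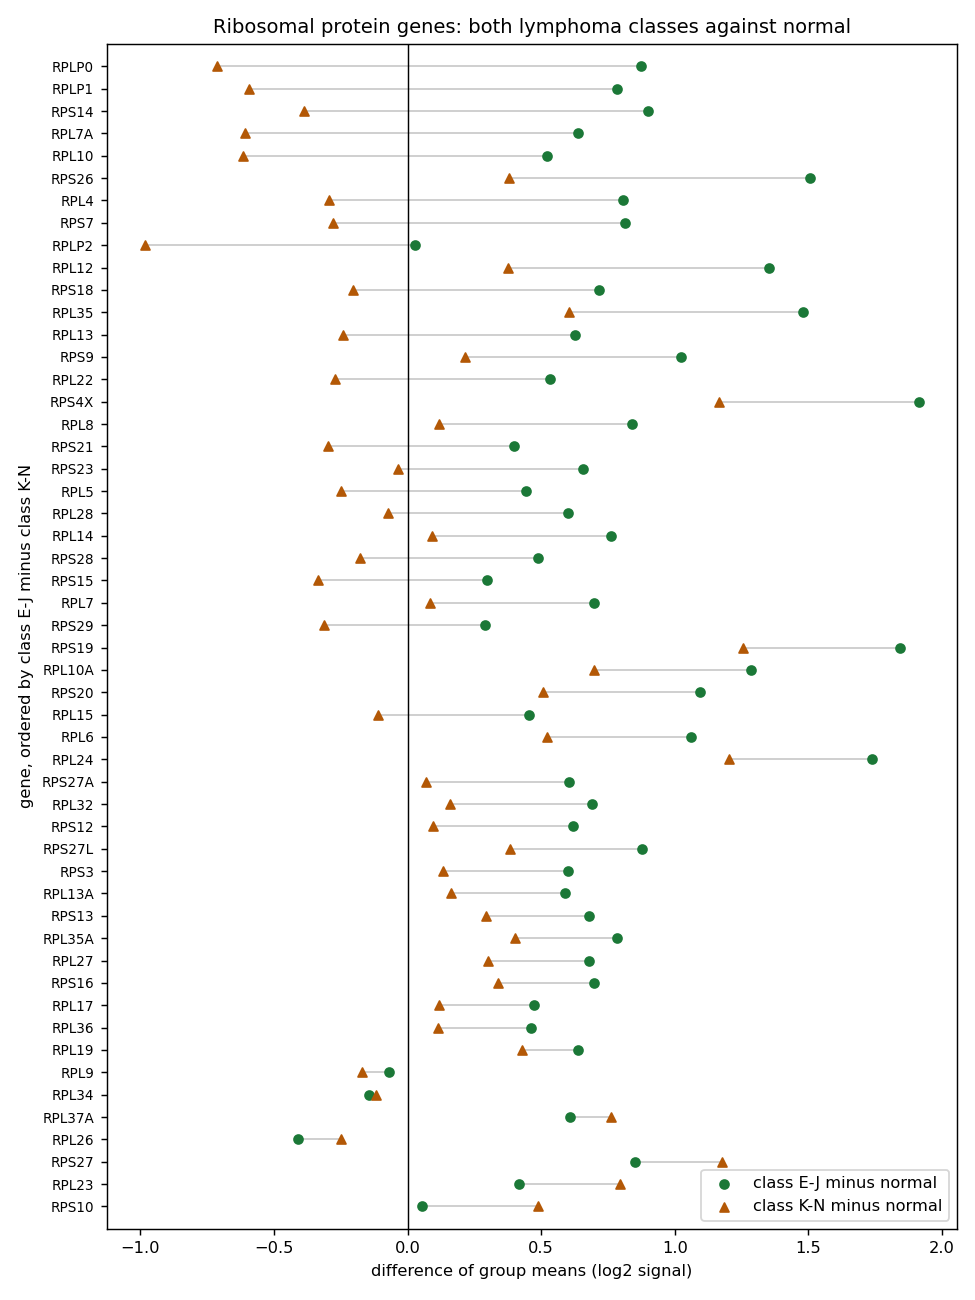
Difference from the mean of 3 normal dogs (log2 signal, horizontal axis) for each of 52 members, in class E-J (green circles) and class K-N (orange triangles), ordered by the gap between the classes. RPLP0 has the widest gap, 0.87 against -0.71, and RPS10 the widest in the other direction, 0.06 against 0.49. Values are means over single-symbol probe sets, and for RPS10 a brighter probe set with several symbols had class E-J the higher.

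On the gene averages the widest gaps between the classes were at RPLP0, RPLP1, RPS14, RPL7A and RPL10. RPLP0 (Entrez gene 609159) holds the P stalk, the arm of the large subunit that recruits elongation factors. Its log2 signal was 11.63 in RB07, 11.59 in RB10, 11.40 in FS25 and 11.32 in NE45. Class E-J ran from 11.90 to 13.84 with a median of 13.06, and the normal nodes had 12.18 in 63, 12.45 in 2970, 11.45 in 3024l and 12.47 in 3024r. The classes did not overlap (log2 difference 1.59), and the 4 class K-N values were close together. Class K-N minus normal was -0.71, and class K-N was clear of the 3 dog averages, although node 3024l by itself was below 2 of the 4 lymphomas.

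RPLP1 and RPLP2 form the acidic pairs that RPLP0 carries. RPLP1 had 7.63 in RB07, 7.46 in RB10, 7.13 in FS25 and 6.87 in NE45, and 8.07 to 9.11 with a median of 8.65 in class E-J. Here too the classes were apart, by 1.38, but the normal nodes spread from 6.57 in 2970 to 9.01 in 63 and covered nearly the whole range. RPLP2 had 13.62, 12.53, 12.96 and 11.66 in class K-N in the same order, 12.77 to 14.13 in class E-J and 13.32 to 13.83 in the nodes. Its mean in class E-J differed from normal by 0.03, whereas class K-N minus normal was -0.98, the lowest difference among the 52 members there. These values rest on 1 probe set. A brighter probe set that lists another symbol beside RPLP2 (mean log2 signal 14.9) gave 0.46 and -0.62. RPL12, at the base of the stalk, differed by 0.98 between the classes with overlap, and its normal dogs varied by an SD of 1.31. Both values include a dim probe set, and by the brighter one the classes differed by 0.35. None of the 4 stalk genes passed any of the 3 tests as run on all arrays of their groups.

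**Figure D5:**
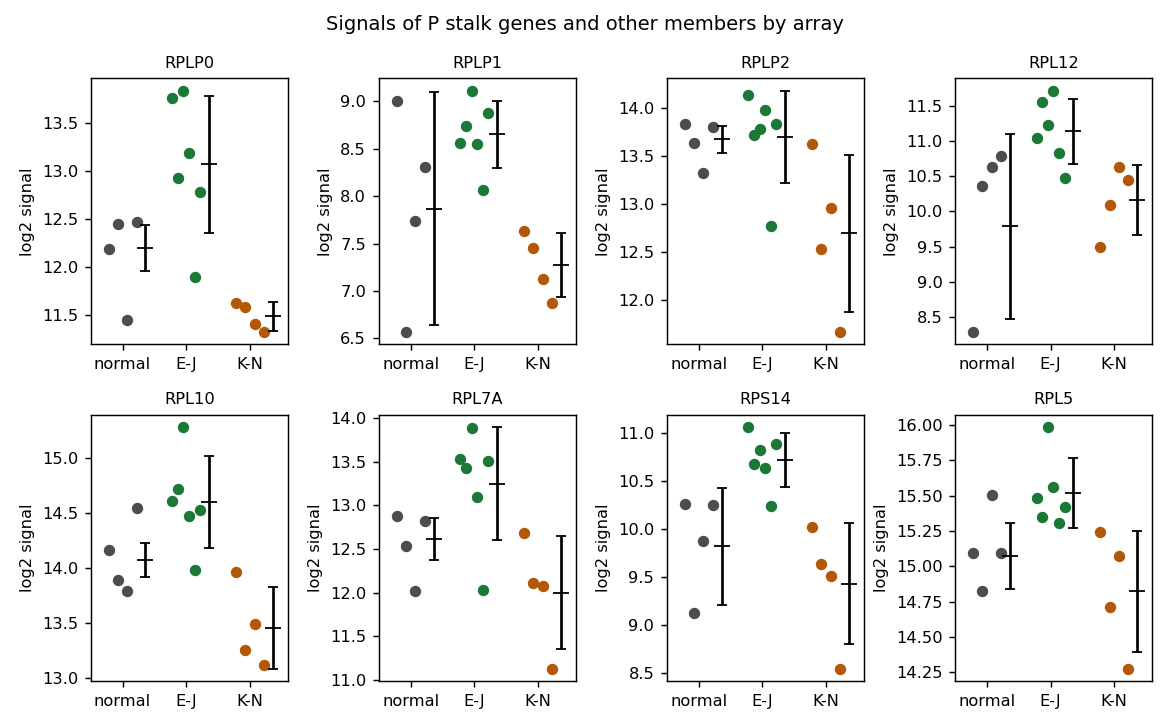
Log2 signal (vertical axis) of the 4 P stalk genes and of RPL10, RPL7A, RPS14 and RPL5 on every array by group, normal nodes in the order 63, 2970, 3024l and 3024r. Black bars are the mean and SD over 3 normal dogs, 6 class E-J and 4 class K-N lymphomas; all class K-N points of RPLP0 (11.32 to 11.63) lie below all class E-J points (11.90 to 13.84).

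Among genes mutated in lymphoid tumours of humans or lost with the long arm of human chromosome 5, RPL10, RPL5 and RPS14 were apart between the classes, beside 6.26% of all genes with class E-J the higher, and RPL22 and RPS15 overlapped. RPL10, mutated in T-cell leukaemia, had 13.97 in RB07, 13.26 in RB10, 13.49 in FS25 and 13.12 in NE45 against 13.99 to 15.28 in class E-J, a difference of 1.14, and 13.79 to 14.54 in the nodes. RB07 and RB16, the lowest of class E-J with 13.99, were all but level. RPS14, the gene of the chromosome 5 deletion, differed by 1.29 on the gene average, which includes dimmer probe sets. By its brightest probe set the difference was 0.88, and RB07 with 15.43 lay just above RB16 with 15.42. RPL5, which carries a small ribosomal RNA into the large subunit and can bind MDM2, differed by 0.69. RPL7A, a large subunit protein, differed by 1.25, but RB16 with 12.03 lay within class K-N at 11.13 to 12.68. For all 5 genes of this list class E-J minus normal was 0.30 to 0.90 and class K-N minus normal was -0.62 to -0.25 on the gene averages. By the brightest single-symbol probe set class K-N minus normal was 0.12 for RPL22 and -0.12 for RPS14. Still brighter probe sets with several symbols gave -0.06 for RPL22 and 0.06 for RPL5.

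Inherited anaemia genes behaved unevenly. Of 6 on the array (RPS7, RPS10, RPS19, RPS26, RPL5 and RPL35A), 0 passed in any of the 3 tests, and class E-J was higher than normal for all of them by 0.06 to 1.84. The highest of these gene averages was that of RPS19, which had 1.17 by its brighter probe set. RPS26 had 12.61 in RB07, 11.38 in RB10, 11.54 in FS25 and 10.94 in NE45 against 11.06 to 13.68 in class E-J, and RB16 held the lowest value of its class. RPS7 was higher in class E-J than in class K-N by 1.09. RPS10 was the member with the largest difference the other way, -0.43 between the classes and -0.61 by its brighter single-symbol probe set. A still brighter probe set that lists other symbols beside RPS10 (mean log2 signal 15.6) gave 0.57. The direction for RPS10 thus depended on the probe set.

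On the gene averages only 6 members had a higher mean in class K-N than in class E-J, and for none of them were the classes apart. Besides RPS10 they were RPL23 with -0.38, RPS27 with -0.33, RPL26 with -0.16, RPL37A with -0.15 and RPL34 with -0.02. The values of RPL23, RPS27 and RPL34 rest on gene averages that include dim probe sets, and by their brightest probe sets the differences were 0.25, 0.44 and 0.43. For RPS10, RPL26 and RPL37A the brightest probe sets with several symbols, all brighter than their single-symbol ones, gave 0.57, 0.58 and 0.50. Of the messages for decoding, RPS3, RPS15 and RPS23 were higher in class E-J than in class K-N by 0.47, 0.63 and 0.69. Along the exit tunnel RPL4, RPL17, RPL19 and RPL35 were higher in class E-J than in every normal dog, by 0.47 to 1.48, as were 9.2% of all genes. RPS27L, a paralog that p53 induces, was higher than in every normal dog in class E-J by 0.88 and in class K-N by 0.38. That of class K-N holds for dog averages, since node 3024r with 13.02 was above NE45 with 12.95 and RB10 with 12.85. RPS27A, made as a fusion with ubiquitin, was higher by 0.60 in class E-J and by 0.07 in class K-N.

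How much a member varied from dog to dog differed between genes. Among the 3 normal dogs the SD of the log2 signal was 0.04 for RPL14, 0.08 for RPS9 and 0.08 for RPS15, and it was 1.72 for RPL37A, 1.31 for RPL12 and 1.23 for RPLP1. Its median over the 52 members was 0.23 against 0.41 over all genes. Among the 10 lymphomas the median was 0.57 against 0.69 over all genes, from 0.24 for RPL19, 0.28 for RPS13 and 0.29 for RPS27L to 1.63 for RPL37A, 1.30 for RPL26 and 0.98 for RPLP0. RPL37A reached a signal of 100 on 3 arrays and RPLP0 on all 14. The SD of RPL12 in normal dogs came mostly from a dim probe set, at 1.72 on node 63 and 6.38 on 2970. Its brighter probe set had 14.8 and 14.4 there. For RPLP1 the dimmer probe set had 8.80 on node 63 and 4.76 on 2970, and the brighter one 9.21 and 8.37.

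Probe sets of a gene often disagreed. The widest range of mean log2 signal within a gene was 12.9 for RPL34, followed by 12.4 for RPL23 and 11.6 for RPL6. Of the 111 member probe sets, 56 had a mean log2 signal of 13 or more, and all 56 were higher in class E-J than in normal nodes and higher than in class K-N. After quantile normalization 49 and 53 of them were. The 20 probe sets with a mean under 100 gave no such picture, with 15 and 10 of 20 higher and an SD of 1.15 of the class E-J difference from normal over them against 0.37 over the 56. Ribosomal protein genes have many processed pseudogenes with near-identical sequence. Of the probe sets, 27 are of the _x_at kind, which the manufacturer marks as open to cross-hybridisation. Another 41 are of the _s_at kind, whose probes can be shared by several transcripts. Signals of single members are therefore uncertain. Without the 27 _x_at probe sets the median of class E-J minus normal was 0.67 and that of class E-J minus class K-N was 0.63. The _s_at probe sets stayed in, so these medians are no full check of cross-hybridisation.

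Messages of elongation factors and their like were mostly higher in the same lymphomas. Of 17 elongation factors and other messages with a 5′ pyrimidine tract, 4 rose and 0 fell in the B-cell set (limma), where 3.48% of all genes rose and 7.39% fell, and their median was 0.66 against -0.06 over all genes. NPM1, a nucleolar chaperone, rose by 1.83 (standard error 0.43, limma adjusted p = 0.0368), NAP1L1, a histone chaperone, by 1.21 (limma adjusted p = 0.0198), EIF4B, an initiation factor, by 0.93 (limma adjusted p = 0.0450) and PABPC1, the poly(A) binding protein, by 0.91 (limma adjusted p = 0.0346). All 17 had a higher mean in class E-J than in class K-N, with a median of 0.75, and 7 were apart, beside 6.26% of all genes. EEF2, the translocation factor, had differences from normal of -0.35 in class E-J and -1.58 in class K-N. Of 11 genes on the array that control the synthesis of ribosomes, 8 were tested in the B-cell set, and 1 rose and 0 fell, beside 3.48% and 7.39% of all genes. In that set these genes were not mostly higher, with 4 of 8 above normal and a median of 0.07. By class, 8 of 10 were higher than normal in class E-J, with a median of 0.30, and 6 of 10 in class K-N, with 0.40. The gene that rose in the B-cell set was MYC, with a log2 difference of 1.08 (standard error 0.23, limma adjusted p = 0.0290). In class E-J MYC was higher than normal by 1.07 and in class K-N by 0.69. MTOR had a log2 difference of -0.26 (limma adjusted p = 0.687).

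Ribosomal proteins under other names gave 0 calls among 6 in each test. RACK1, on the head of the small subunit, had log2 differences from normal of 0.76 in class E-J and 0.10 in class K-N. FAU, whose product is a small subunit protein fused to a ubiquitin-like part, had 0.22 and -0.85. RPL22L1, the paralog of RPL22, had 0.94 and -0.63, a gap of 1.57 between the classes. Of 68 mitochondrial ribosomal proteins tested in the B-cell set 1 rose (MRPS21, by 1.08, limma adjusted p = 0.0456) and 0 fell, beside the same shares of all genes, with a median of 0.44. In class E-J minus class K-N the median over 70 of them was 0.12, beside 0.60 for the cytosolic members.

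The mean signal over genes of dividing cells was higher in every lymphoma than in the normal nodes. The mean log2 signal of 5 of 8 listed genes on the array was 8.03 to 8.75 in normal nodes, 9.03 to 9.98 in class E-J and 9.69 to 10.2 in class K-N. The classes overlapped in this mean, and 1 of the 5 genes, TOP2A, was lower in all class E-J lymphomas than in all of class K-N. Gene by gene, 3 of 5 were clear of the normal dogs upwards in class E-J and 5 of 5 in class K-N, beside 9.2% and 8.8% of all genes. The part of division, of cell mixture or of RNA quality in the ribosomal protein values was not tested.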

How the data were processed

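Signals of 14 canine GeneChip arrays were used. The deposited values are linear intensities per probe set, which the authors summarised with MAS5 (version not given in the sources used here) from RNA amplified with WT-Ovation Pico, with a trimmed mean of 500 as the target for all arrays. RNA-Seq and detection calls were not analysed here. Of 43035 probe sets, 29703 are listed with a gene, 439 of them with several symbols, and the 29254 with a single symbol gave 15115 genes as means of log2 signals. Genes entered a test if at least 3 of its arrays had a signal of 100 or more, and the tests were run with limma 3.58.1 in R 4.3.3 (lmFit, eBayes, Benjamini-Hochberg over all genes tested, two-sided, threshold 0.05), and nodes 3024l and 3024r were averaged where both entered. The script was tested on simulated data. Plots used matplotlib 3.10.9 (Python 3.11.15).

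The number of arrays limits the precision, and the samples are single aspirates of different dogs. Members, gene lists and tests were chosen with earlier results of these data known, so no list has a test of its own. Named members were those that passed a test, the 5 highest and 5 lowest differences over all lymphomas and between the classes, the 3 largest and smallest SDs, members of the role lists and members whose probe sets differed most. Alternatives changed the filter, scaling, pseudocount, floor, gene summary, test, clinic block and arrays. Those without the manufacturer's cross-hybridising (_x_at) probe sets, and without RB07, RB10 and FS22 outside the label comparison, were chosen after seeing the data. Sequences of the members were not analysed here.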

Additional observations from a re-analysis of the deposited data

Results flagged for a closer look

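Among the 7 lymphomas labelled B-cell, RB10 had an RPS9 log2 signal of 14.18, apart from the other 6, and the gap was 0.597 of the whole range of the group. It was 1 of 21 groups of values examined in this way for the members that passed a test and for the array medians, and chance alone gives about 1 such gap in 20. RB10 was among the arrays whose markers went against their label.

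Probe sets with several symbols entered none of the tests or gene averages, and 75 of them carried a ribosomal protein symbol that fits the rule. Of these, 70 reached a signal of 100 on at least 3 arrays. Their median log2 difference between all lymphomas and normal dogs was 0.52, that of class E-J minus normal was 0.76 with 66 of 70 higher, and that of class K-N minus normal was 0.15 with 47 of 70 higher. Class E-J was above class K-N for 66 of 70, with a median of 0.60. They share genes, pseudogenes and arrays with the members and are no independent support.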

How the results depend on the processing

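No paired analysis was possible because the labels give no replicate number that ties dogs of different groups. The count of members that passed in the B-cell set, 6, was 2 with 3024l in place of 3024r, 18 with trend and robust variance, 12 with log2(signal + 50), 10 with median centring, 1 without a filter, 10 with a filter at 200, 15 with a floor of 100 and 0 with the methods' t-test, and 0 to 9 when each dog was left out. For all lymphomas the count of 1 was 0 with 3024l alone and without a filter, 3 with trend and robust variance, with log2(signal + 50) and with the floor, 2 with median centring, quantile normalization, the filter at 200 and single probe sets, 8 with the methods' t-test, and 0 to 2 when each dog was left out. Between B-cell and T-cell labels it was 1 (RPLP1) without RB07, RB10 and FS22, which leaves class E-J dogs against class K-N dogs alone and is no test of the label. The median member difference in the B-cell set, 0.60, was 0.93 with median centring and 0.25 with quantile normalization, and in class E-J minus normal, 0.67, it was 0.91 and 0.27. In class K-N minus normal, 0.10, it was -0.044 with quantile normalization and between -0.023 (without RB07) and 0.19 when each dog was left out. A normal left out leaves 2, and the cause of the other shifts was not tested. Every count above 0 under these alternatives was of members higher in lymphoma, or in the B-cell label. Counts over all genes under the same settings are not set beside them here. A setting that raised the member count may have raised calls over the whole array, and nothing is read from the larger counts.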
